A study of Mus musculus with 7 samples.

Results

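The cytosolic ribosomal protein genes were followed in RNA from libraries labelled as whole abdominal aorta of mice. They were the rows of the expression table whose names follow the ribosomal protein pattern (Rpl or Rps with a number), together with Rpsa, Rplp0, Rplp1 and Rplp2. This gave 88 of 32544 genes, 36 named for the small subunit and 52 for the large subunit. The libraries labelled ITA-LNP (3) and control-LNP (4) came from male Apoe-/- mice on a high-fat diet for 12 weeks. Apoe-/- mice lack apolipoprotein E and develop atherosclerotic plaques. Animals of both groups carried that deletion, ate that diet and received particles into a vein each week, 50 mg/kg of either ITA-LNP or the control called Ctrl-LNP. LNP usually stands for lipid nanoparticle, and ITA is read as itaconate, a metabolite that activated macrophages make. Each level is in CPM, reads per 1000000 reads assigned to genes, from sequencing of transcript 3′ ends, so gene length does not enter it. The labels do not say whether each library came from its own mouse. The p-values therefore rest on the variation among these libraries, some of which may be technical.

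A cytosolic ribosome joins a small subunit, which reads the mRNA, to a large subunit, which forms the peptide bonds, and most of the proteins are present as a single copy per subunit. Their mRNAs are among the most abundant of a growing cell and belong to the TOP class: they begin with a C followed by a run of C and T (the terminal oligopyrimidine tract), through which mTORC1 and the RNA-binding protein Larp1 set their translation. Platelets, red cell precursors and lymphocytes differ widely in their content of ribosomes and of these mRNAs.

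The libraries held 5077073 to 7281721 reads. Transcripts of the vessel wall were plentiful in the ITA-LNP libraries and sparse in those labelled control-LNP. The 12 smooth muscle markers summed to 18669 to 22732 CPM with ITA-LNP and 562 to 881 CPM with control-LNP, and the 11 matrix markers to 34105 to 37673 CPM and 183 to 392 CPM. In the other direction, the 10 platelet markers summed to 136 to 203 CPM with ITA-LNP and 10267 to 14411 CPM with control-LNP, the 8 B cell markers to 41.3 to 221 CPM and 2082 to 4344 CPM, and the 8 erythroid markers to 2556 to 4243 CPM and 12417 to 44894 CPM. All 12 smooth muscle and all 11 matrix markers were higher, and all 10 platelet markers, 7 of 8 B cell markers and 5 of 8 erythroid markers lower, with ITA-LNP. None of these markers was at 0 in every library of a group, except Slc4a1, an erythroid anion exchanger, with ITA-LNP. These levels go against the tissue label of the control-LNP libraries. Whether they hold whole abdominal aorta as labelled could not be settled here, so each fold change compares libraries as labelled and may not compare like tissue. Control-LNP replicate 2 stood apart from its group. Of 7102 genes at 10 CPM or more in each of the other control-LNP libraries, 3277 were below 10% of their lowest level there, against 4 of 79 ribosomal protein genes. It was the lowest control-LNP library for 4637 of the 7102 genes and for 46 of the 79. The 2 sets were not matched for level.

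Ribosomal protein transcripts took a smaller share of the ITA-LNP libraries. Summed over the 88 genes, they made up 4.73%, 5.66% and 5.70% of reads with ITA-LNP, against 12.4%, 10.7%, 21.6% and 17.8% with control-LNP. Each ITA-LNP library was below each control-LNP library, and the control-LNP libraries spread over a range of their own that was wider than that of the ITA-LNP libraries. The means were 53651 ± 5497 CPM with ITA-LNP and 156351 ± 50247 CPM with control-LNP (SD, n = 3 and 4), so the control-LNP mean was 2.91 times the ITA-LNP mean. Leaving out any 1 library kept this ratio between 2.54 and 3.22. The small subunit genes summed to 20329, 23633 and 22955 CPM with ITA-LNP and 54481, 46912, 107020 and 87672 CPM with control-LNP. The large subunit genes summed to 26978, 33000 and 34058 CPM with ITA-LNP and 69762, 59763, 109345 and 90447 CPM with control-LNP. Per read of large subunit genes, the ITA-LNP libraries held 0.754, 0.716 and 0.674 small subunit reads and the control-LNP libraries 0.781, 0.785, 0.979 and 0.969. The groups did not overlap in either subunit or in their ratio. The proteins of the mitochondrial ribosome, encoded by separate nuclear genes, summed to 2408, 2393 and 2461 CPM with ITA-LNP and 2745, 2623, 2964 and 2889 CPM with control-LNP. Those groups also did not overlap, but their means were closer together, at 2421 and 2805 CPM.

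**Figure D1:**
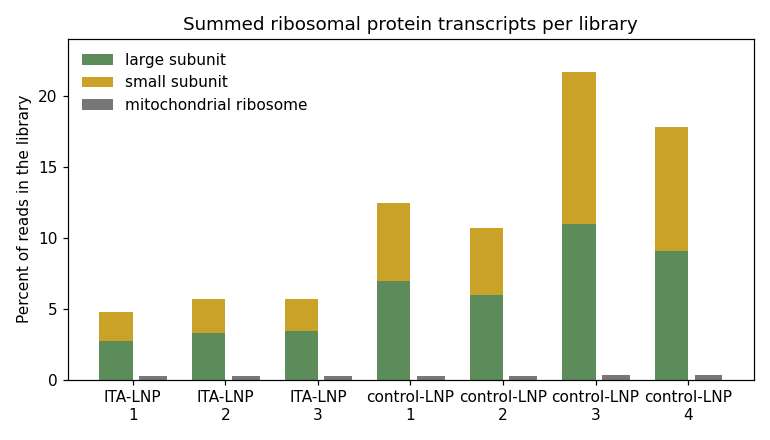
Percent of the reads of each library (vertical axis) that fell on large subunit and small subunit ribosomal protein genes, stacked, and on mitochondrial ribosomal protein genes, beside them, in 3 ITA-LNP and 4 control-LNP libraries. The stacked bars end between 4.73% and 5.70% with ITA-LNP and between 10.7% and 21.6% with control-LNP.

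Between the groups, the blood cell markers given above moved in the same direction as this sum, the wall markers in the opposite one, and so did the 13 transcripts of the mitochondrial genome, at 84452 to 100033 CPM with ITA-LNP and 28133 to 52167 CPM with control-LNP. Within control-LNP replicates 1 to 4, the sum was highest in replicate 3. The platelet markers (14345, 14411, 10267 and 13907 CPM) and erythroid markers (44894, 21203, 12417 and 13132 CPM) were lowest there. The B cell markers (3414, 2082, 4344 and 3748 CPM) were highest there. T cell markers (966, 554, 941 and 1263 CPM) were highest in replicate 4. Neutrophil markers (920, 26560, 10240 and 1080 CPM) were highest in replicate 2, where the ribosomal protein sum was lowest. The part of each of these sets in the ribosomal protein levels was not tested. In bulk tissue, fewer cells of a type that is rich in these mRNAs and less of these mRNAs per cell cannot be told apart.

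Of the 88 genes, 52 fell with ITA-LNP, none rose, 29 did not pass the threshold and 7 were too low to test. The test was limma-trend on log2(CPM + 1) over 12636 genes, with Benjamini-Hochberg adjustment and a threshold of 0.05. The 52 genes are 64.2% of the 81 tested ones, while 5.15% of all tested genes were lower and 10.3% higher. No ribosomal protein gene was higher at an unadjusted p under 0.05 either, and limma-voom on recovered reads called 44 lower and 0 higher. In 52 tested genes every ITA-LNP value lay below every control-LNP value, against 10.7% of all tested genes. These were 51 of the 52 genes that fell, and Rps21, which did not pass. The median log2 fold change was -1.33, with the middle 50% of genes between -1.59 and -0.82, beside a median of 0.15 over all tested genes. Small subunit genes fell in 24 of 32 tested cases (median -1.46) and large subunit genes in 28 of 49 (median -1.18), and the difference between the subunits was not tested.

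**Figure D2:**
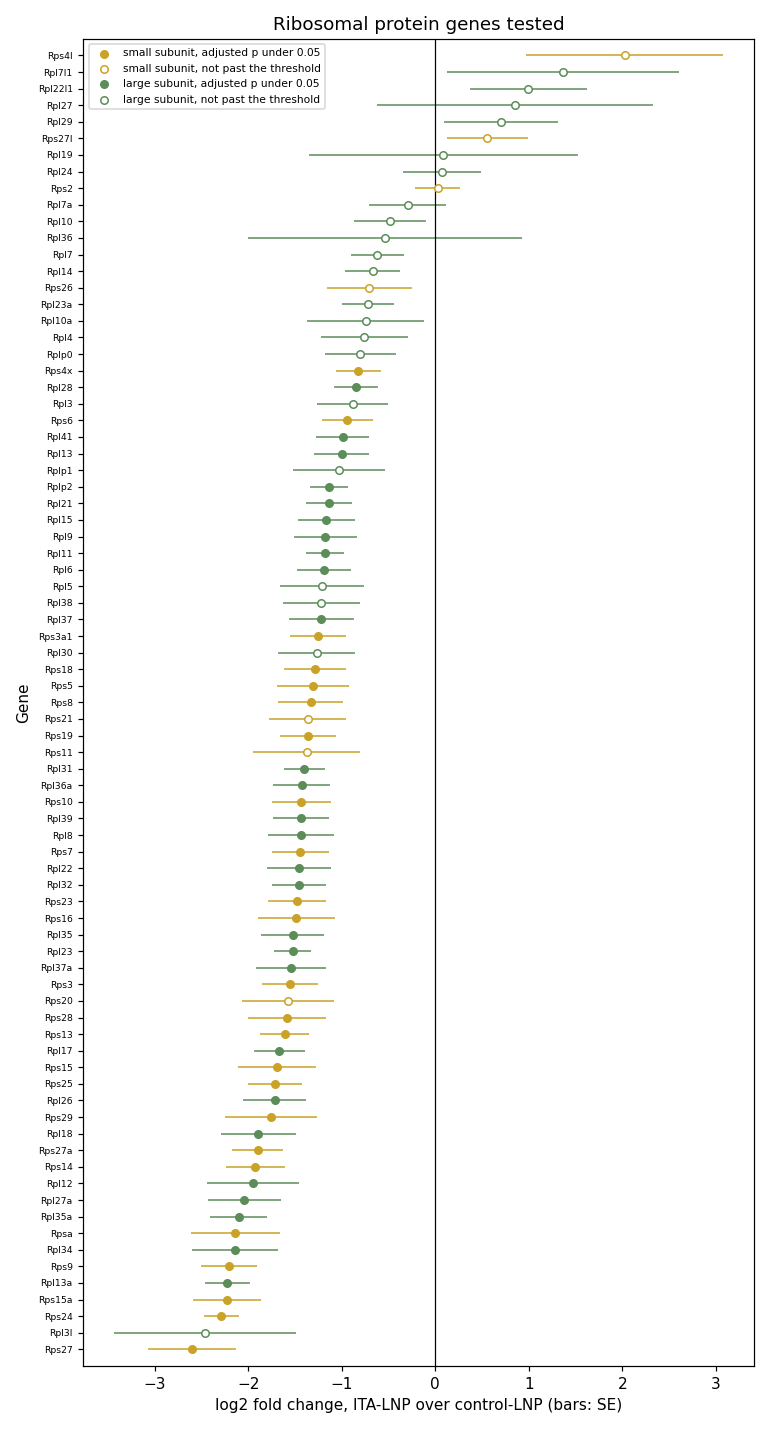
Log2 fold change, ITA-LNP over control-LNP (horizontal axis), of 79 of the 81 tested ribosomal protein genes, ordered by value, with bars of 1 SE; filled points passed the threshold. The 51 filled points drawn all lie left of 0. The direction holds for CPM as deposited, median centring and quantile normalization, and scaling each library to the family's own sum turns the median to 0.16.

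Replicates decided many single calls. With control-LNP replicate 2 left out, 63 genes fell, among them 51 of the 52, against 15.7% of all tested genes. The family median was then -1.47, and the median of all tested genes also moved down, to -0.31. Without ITA-LNP replicates 1, 2 and 3 the count was 25, 30 and 33, without control-LNP replicates 3 and 4 it was 32 and 30, and without control-LNP replicate 1 it was 49. For these other fits the share of all tested genes that fell is not given, so their counts do not compare the family with other genes. Calls that held in all 7 of these fits numbered 24. They were Rps3, Rps9, Rps10, Rps13, Rps14, Rps15a, Rps24, Rps25, Rps27 and Rps27a of the small subunit and Rpl11, Rpl13a, Rpl17, Rpl18, Rpl21, Rpl23, Rpl26, Rpl27a, Rpl31, Rpl32, Rpl35a, Rpl36a, Rpl39 and Rplp2 of the large subunit. Centring each library on the median of all tested genes left 7 calls with a median of -2.46. It also moved the median of all tested genes to -0.98, and the cause of the lost calls was not tested. With all libraries, the family stood at -1.48 relative to the median of all tested genes, a distance that centring cannot change. After quantile normalization it stood at -0.99. A variance prior without the intensity trend left 6 calls.

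The sequence at the start of the genes was read from RefSeq (GRCm38.p6), which held promoter windows for 63 of the 88 genes, from 250 bases before to 50 bases after the annotated start. In 48 of these 63 (76.2%) a run of at least 8 C or T lay within 40 bases of the start on the strand of the gene, against 32.6% of the 27025 genes in the same table. The longest such run had a median of 9 bases in the windows of the family and 6 in all windows. Windows of the 6 genes with the largest falls and of 3 genes near or above their control-LNP level are shown, 40 bases before to 20 bases after the start, so that the runs can be compared. The run of 8 bases by which Rps2 counts among the 48 genes lies partly or wholly past the printed stretch. Capitals mark the longest run of C and T in the printed 60 bases, and where a gene has several annotated starts the window with the longest run is given. Rps2 and Rpl7a were chosen after their values were seen.
Rps27, chr3:90213629-90213688, minus strand: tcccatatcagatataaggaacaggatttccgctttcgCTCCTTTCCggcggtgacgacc
Rps24, chr14:24490713-24490772, plus strand: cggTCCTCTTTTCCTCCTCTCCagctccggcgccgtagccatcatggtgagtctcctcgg
Rps15a, chr7:118116128-118116187, minus strand: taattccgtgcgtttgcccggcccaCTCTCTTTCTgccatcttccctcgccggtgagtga
Rpl13a, chr7:45128726-45128785, minus strand: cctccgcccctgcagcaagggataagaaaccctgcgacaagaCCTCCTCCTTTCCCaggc
Rps9, chr7:3704001-3704060, plus strand: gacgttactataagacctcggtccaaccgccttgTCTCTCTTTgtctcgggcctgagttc
Rpl34, chr3:130730318-130730377, minus strand: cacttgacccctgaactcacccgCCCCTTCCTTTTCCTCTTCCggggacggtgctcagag
Rpl22l1, chr3:28805468-28805527, plus strand: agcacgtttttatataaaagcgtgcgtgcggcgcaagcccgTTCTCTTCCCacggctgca
Rpl7a, chr2:26910767-26910826, plus strand: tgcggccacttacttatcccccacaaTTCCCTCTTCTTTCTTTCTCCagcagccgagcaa
Rps2, chr17:24720023-24720082, plus strand: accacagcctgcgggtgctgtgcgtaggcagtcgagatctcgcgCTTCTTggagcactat

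The run did not separate the genes that fell from the others. Of tested genes with a window, 32 of 46 with such a run fell (median log2 fold change -1.36) and 10 of 14 without one (median -1.37), as a description with no test. Rpl7a, with the longest run in the family at 21 bases, had a log2 fold change of -0.30, and Rpl34, with 20 bases, one of -2.14. Across the 60 genes, Spearman's rho between run length and log2 fold change was -0.15, a description in which all points come from the same 7 libraries. Other short motifs were searched on both strands of the whole windows. The ETS-type motif CCGGAAG was in 26 of the 63 genes (41.3%, against 9.93% of all genes), the YY1-type motif AAGATGG in 10 (15.9% against 7.28%), the E-box CACGTG in 6 (9.52% against 8.09%) and TATAAA in 7 (11.1% against 15.7%). A match is a description of the letters and not evidence of a bound site.

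The 6 largest falls were those of Rps27, Rps24, Rps15a, Rpl13a, Rps9 and Rpl34. Rps27, a zinc-finger protein of the small subunit, had 2517, 1265 and 1351 CPM with ITA-LNP, against 6550, 4702, 18667 and 16514 CPM with control-LNP (log2 fold change -2.60 ± 0.47 SE, adjusted p = 0.00466, limma). Its groups did not overlap, and control-LNP replicates 3 and 4 were the high ones. Rps24, which is mutated in some families with Diamond-Blackfan anaemia, a red cell aplasia of humans, had 615, 840 and 880 CPM with ITA-LNP, against 3362, 3344, 4217 and 4218 CPM with control-LNP (-2.29 ± 0.19, adjusted p = 8.96e-05). The control-LNP libraries were close together for this gene, replicate 2 included. Rps15a had 497, 501 and 662 CPM with ITA-LNP, against 2972, 1197, 3413 and 3613 CPM with control-LNP (-2.23 ± 0.37, adjusted p = 0.00286). Here control-LNP replicate 2 was the lowest of its group and still above each ITA-LNP library.

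Rpl13a, known also as a phosphorylated repressor of inflammatory mRNAs in human monocytes, had 977, 1185 and 1543 CPM with ITA-LNP, against 6975, 3790, 6157 and 6334 CPM with control-LNP (-2.22 ± 0.24, adjusted p = 0.000341). Rps9, a small subunit protein of the region where mRNA enters, had 149, 247 and 249 CPM with ITA-LNP, against 739, 1077, 1229 and 893 CPM with control-LNP (-2.20 ± 0.30, adjusted p = 0.00124). Neither gene had overlapping groups. Rpl34, of the large subunit, had 278, 537 and 391 CPM with ITA-LNP, against 1158, 882, 3284 and 2593 CPM with control-LNP (-2.14 ± 0.46, adjusted p = 0.0109). Without ITA-LNP replicate 1 its adjusted p was 0.0574, while the other 5 genes stayed under 0.05 with any 1 library left out.

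The most abundant members were Rps27, Rps21, Rps23, Rpl13a, Rpl37a, Rps16, Rps29 and Rps28. The 8 highest genes of each library took 26.3%, 24.7% and 23.3% of its ribosomal protein reads with ITA-LNP and 30.6%, 28.6%, 33.4% and 33.7% with control-LNP. Rps21 had the highest mean with ITA-LNP and was second to Rps27 with control-LNP, as long as Rps27 was counted without its near-identical copies. With them added, Rps27 averaged 3069 CPM with ITA-LNP, above the 2113 CPM of Rps21. Rps21 had 1966, 2426 and 1946 CPM with ITA-LNP, against 3558, 2838, 10675 and 7928 CPM with control-LNP. Its groups did not overlap, yet its log2 fold change of -1.36 ± 0.41 missed the threshold (adjusted p = 0.0526). With control-LNP replicate 1 or 2 left out the adjusted p was 0.0428 and 0.0119. Rps23, which lies at the decoding centre, had 1432, 2036 and 2052 CPM with ITA-LNP, against 4452, 2901, 7321 and 6900 CPM with control-LNP (-1.48 ± 0.31, adjusted p = 0.00945, and 0.0522 without ITA-LNP replicate 1). Rpl37a fell by 1.54 ± 0.37 on the log2 scale (adjusted p = 0.02), Rps16 by 1.48 ± 0.41 (0.038), Rps29 by 1.76 ± 0.49 (0.0374) and Rps28 by 1.59 ± 0.42 (0.0294). These 4 calls depended on single libraries. Rpl37a did not pass when any of ITA-LNP replicates 1 and 3 and control-LNP replicate 4 was left out (highest adjusted p 0.0943). Rps29 and Rps28 lost theirs without any single ITA-LNP library or control-LNP replicate 3 or 4, up to 0.134 and 0.122, and Rps16 without any library other than control-LNP replicate 2, up to 0.142. Members with a shorter coding sequence tended to have the higher levels, as a description, with Spearman's rho between level and coding length of -0.32 with ITA-LNP and -0.39 with control-LNP over 81 genes from 75 to 1257 coding bases.

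Of the stalk proteins, which recruit the GTPases of elongation to the large subunit, Rplp2 had 1168, 1247 and 1371 CPM with ITA-LNP, against 2443, 2662, 3855 and 2323 CPM with control-LNP, and fell by 1.13 ± 0.20 on the log2 scale (adjusted p = 0.00415). Its ITA-LNP libraries all lay below its control-LNP libraries. Rplp0, the base of the stalk and a common reference gene for quantitative PCR, had 1023, 1132 and 1318 CPM with ITA-LNP, against 2981, 889, 2430 and 2529 CPM with control-LNP. Rplp1 had 714, 517 and 630 CPM with ITA-LNP, against 989, 502, 2548 and 1980 CPM with control-LNP. For both, control-LNP replicate 2 lay below the ITA-LNP libraries and the other control-LNP libraries lay above them. Neither passed the threshold with all libraries (-0.80 ± 0.38, adjusted p = 0.192, and -1.03 ± 0.49, adjusted p = 0.201). Without control-LNP replicate 2 both did (-1.19, adjusted p = 0.00231, and -1.47, adjusted p = 0.0135). Rpsa, a small subunit protein also described as a laminin receptor, had 201, 271 and 427 CPM with ITA-LNP, against 2284, 522, 1485 and 1421 CPM with control-LNP (-2.14 ± 0.48, adjusted p = 0.013). Its groups did not overlap, and it did not pass when ITA-LNP replicate 1 or 2 was left out (highest adjusted p 0.0659).

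Members known for roles beyond the ribosome showed both outcomes. Rpl11, which with Rpl5 and the small ribosomal RNA of the large subunit binds the ubiquitin ligase Mdm2, had 958, 1024 and 1429 CPM with ITA-LNP, against 2041, 3043, 2477 and 2691 CPM with control-LNP (-1.18 ± 0.21, adjusted p = 0.00391). Rpl5 had 435, 659 and 798 CPM with ITA-LNP, against 1888, 564, 2006 and 1894 CPM with control-LNP (-1.21 ± 0.45, adjusted p = 0.108). Control-LNP replicate 2 lay within the ITA-LNP range for Rpl5 and was the highest of its group for Rpl11, and without it Rpl5 passed the threshold (-1.66, adjusted p = 0.00179). Rps19, the gene most often mutated in human Diamond-Blackfan anaemia, had 688, 653 and 532 CPM with ITA-LNP, against 994, 1406, 2280 and 2050 CPM with control-LNP (-1.36 ± 0.30, adjusted p = 0.0117, and 0.0591 without ITA-LNP replicate 3). Rps27a, made as a fusion with ubiquitin, fell by 1.90 ± 0.27 (adjusted p = 0.00155), and Rps3, which also has a described role in DNA repair, by 1.55 ± 0.30 (adjusted p = 0.006). Their groups did not overlap.

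Rps6, the substrate of the S6 kinases downstream of mTORC1, had 419, 581 and 501 CPM with ITA-LNP, against 655, 920, 1276 and 1067 CPM with control-LNP. Rps4x, encoded on the X chromosome, had 454, 546 and 548 CPM with ITA-LNP, against 751, 813, 1156 and 975 CPM with control-LNP. The groups of neither gene overlapped, and both falls were near the threshold, at -0.94 ± 0.28 (adjusted p = 0.0475) and -0.82 ± 0.24 (adjusted p = 0.0442). Both calls were lost without any single ITA-LNP library and without control-LNP replicate 3 or 4 (highest adjusted p 0.168 and 0.15). Rpl22, which has a described role in lymphocyte development in mice, fell by 1.46 ± 0.34 (adjusted p = 0.017), a call lost without any single ITA-LNP library or control-LNP replicate 4 (up to 0.0764). Rpl39, a small protein of the exit tunnel, fell by 1.43 ± 0.30 (adjusted p = 0.00902). The next 5 members did not pass. Rpl38, needed in mouse embryos for translation of Hox mRNAs, was at -1.22 ± 0.41 (adjusted p = 0.0821), and at -1.53 without control-LNP replicate 2 (adjusted p = 0.0124). Rpl3, of the peptidyl transferase region, was at -0.88 ± 0.38 (adjusted p = 0.153), and at -1.11 without that replicate (adjusted p = 0.00521). Rpl4 and Rpl23a, both at the exit tunnel, and Rpl10, which is placed late in large subunit assembly, were at -0.76 ± 0.46 (adjusted p = 0.32), -0.72 ± 0.28 (adjusted p = 0.123) and -0.49 ± 0.39 (adjusted p = 0.465), and did not pass without that replicate either.

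Within the family, the order of the members differed between the groups. Over the 80 members with reads in every library, Spearman's rho between 2 ITA-LNP libraries was 0.920 to 0.952 and between 2 of control-LNP replicates 1, 3 and 4 it was 0.907 to 0.973. Between an ITA-LNP library and one of those 3 it was 0.772 to 0.884, and between control-LNP replicate 2 and the other control-LNP libraries 0.701 to 0.825. These are descriptions over genes of shared libraries. To compare members with each other, each library was divided by its summed ribosomal protein level. On this scale 3 members were lower with ITA-LNP, against 2.11% of all tested genes, and 8 were higher, against 24.3% of all tested genes, which is a larger share than in the family. The 3 lower ones were Rps27 (-1.11 ± 0.34, adjusted p = 0.034), Rps24 (-0.80 ± 0.22, adjusted p = 0.0236) and Rpl13a (-0.73 ± 0.24, adjusted p = 0.0449).

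**Figure D3:**
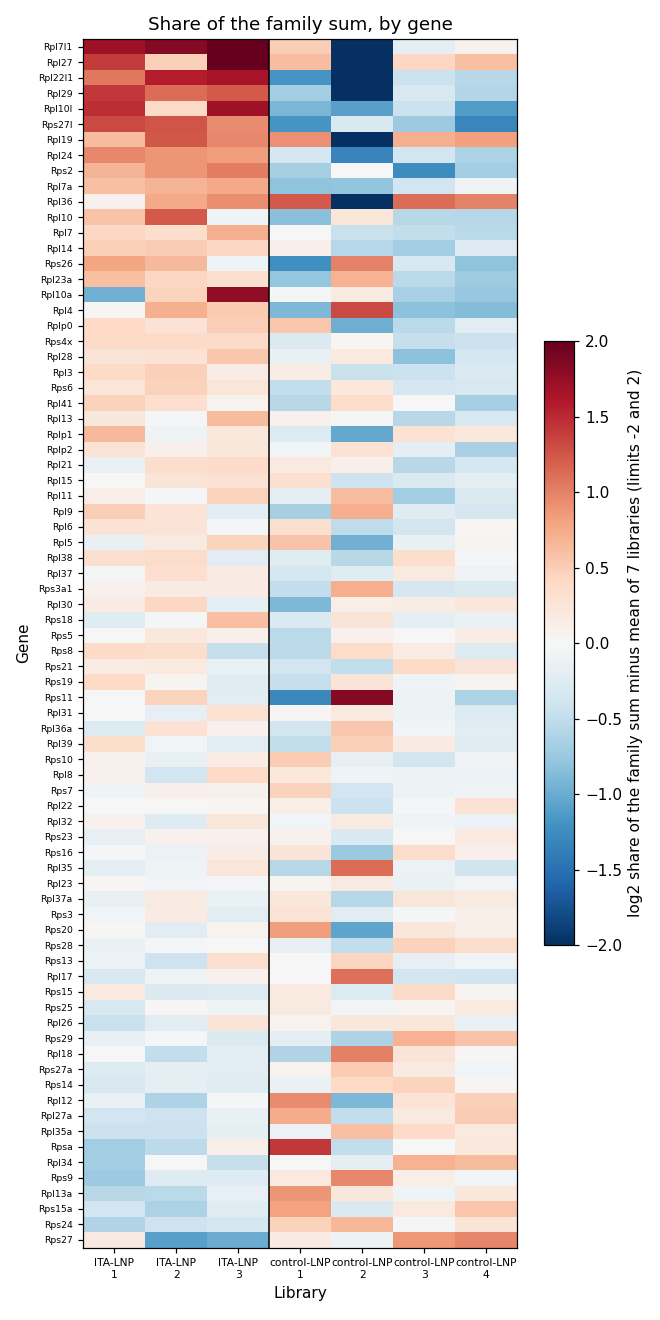
Share of the ribosomal protein sum, by gene (rows, ordered by group difference) and library (columns, 3 ITA-LNP left of 4 control-LNP), as log2 share minus the gene's mean over 7 libraries, with colours limited at -2 and 2. Of the 80 genes with reads in every library, 78 are drawn. Rps27 stands in the bottom row, and control-LNP replicate 2 differs from its group in single genes such as Rpl19, Rpl27, Rpl36 and Rpl7l1. With copies added, which are not drawn, Rpl27 had 632 CPM in that replicate and 614 to 1564 CPM in the others of its group.

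Among the 8 members higher relative to the family sum were Rpl22l1, Rpl24, Rpl29, Rpl7, Rpl7a, Rps2 and Rps27l. Apart from the 2 paralogs they were chosen after their values were seen. On the deposited scale none of the 8 passed the threshold, with log2 fold changes from -0.62 to 0.99. Rps2, a small subunit protein near the mRNA entry site, had 669, 922 and 1016 CPM with ITA-LNP, against 689, 946, 792 and 973 CPM with control-LNP. The groups overlapped throughout, and its mean of 869 CPM with ITA-LNP stood beside 850 CPM with control-LNP (0.02 ± 0.24, adjusted p = 0.967). Relative to the family sum Rps2 was at 1.51 ± 0.33 (adjusted p = 0.00655). Rpl24, at the interface of the subunits, had 503, 569 and 552 CPM with ITA-LNP, against 529, 232, 908 and 627 CPM with control-LNP (0.07 ± 0.42, adjusted p = 0.943, and 1.56 ± 0.35 relative to the family, adjusted p = 0.00734). Rpl7a was at -0.30 ± 0.41 on the deposited scale (adjusted p = 0.698). Rpl19, Rpl27 and Rpl36, also named after their values were seen, had 4.19, 1.35 and 3.29 CPM in control-LNP replicate 2 and 149 to 548 CPM in the other control-LNP libraries. Their log2 fold changes of 0.09 ± 1.44, 0.85 ± 1.47 and -0.54 ± 1.46 became -1.53, -0.74 and -2.16 without that replicate, and Rpl19 and Rpl36 then passed the threshold (adjusted p = 0.00522 and 0.00245). With the reads of their copies added, control-LNP replicate 2 had 632 CPM for Rpl27, 160 CPM for Rpl19 and 3.44 CPM for Rpl36. The other control-LNP libraries then had 614, 1564 and 1142 CPM for Rpl27 and 357, 556 and 483 CPM for Rpl19. By limma-trend on all libraries, Rpl27 was then at -0.62 ± 0.36 (adjusted p = 0.289) and Rpl19 at -1.11 ± 0.46 (adjusted p = 0.146). Rpl36 was at -0.56 ± 1.45 (adjusted p = 0.853).

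The family holds 7 paralogs with restricted or alternative use. Of the 5 that were kept, Rpl3l and Rps4l passed the filter on low values only through the group where they were high, and are given without a test. None of the other 3 passed the threshold of limma-trend with all libraries or that of limma-voom, or had an unadjusted p under 0.05. Rpl22l1, the paralog of Rpl22, had 204, 347 and 368 CPM with ITA-LNP, against 113, 51.3, 331 and 251 CPM with control-LNP (0.99 ± 0.62, adjusted p = 0.338). Rps27l, a paralog of Rps27 described as a target of the tumour suppressor Trp53, had 147, 170 and 138 CPM with ITA-LNP, against 69.1, 108, 164 and 90.2 CPM with control-LNP (0.56 ± 0.43, adjusted p = 0.453). Both sets of values overlapped between the groups. After median centring both fold changes turned negative, at -0.14 and -0.57. Against the partner gene the groups were apart. Per 100 reads of Rpl22 there were 36.9, 52.0 and 53.4 reads of Rpl22l1 with ITA-LNP, against 7.12, 5.54, 13.5 and 9.83 with control-LNP. Per 100 reads of Rps27 there were 5.86, 13.4 and 10.2 reads of Rps27l with ITA-LNP, against 1.06, 2.29, 0.878 and 0.546 with control-LNP. With the near-identical copy Rps27rt added to Rps27, they were 4.48, 5.19 and 5.22 with ITA-LNP, against 0.598, 1.73, 0.496 and 0.317 with control-LNP. Because the partners Rpl22 and Rps27 fell, such a ratio shows unequal change of the pair and not a change of the paralog.

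**Figure D4:**
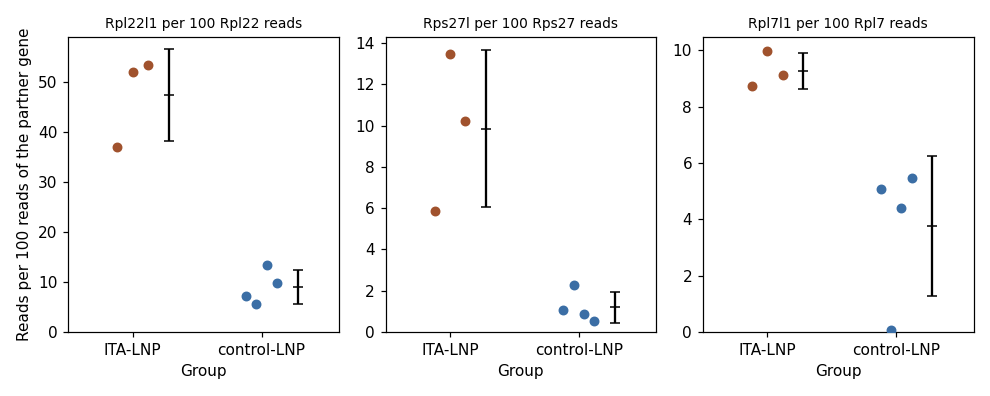
Reads of a paralog per 100 reads of its partner gene (vertical axis) for Rpl22l1, Rps27l and Rpl7l1 in 3 ITA-LNP and 4 control-LNP libraries, with the mean and SD beside the points. The ITA-LNP points lie above all control-LNP points in each panel, and control-LNP replicate 2 is near 0 for Rpl7l1. Rps27 is drawn without its copies.

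Rpl7l1, a paralog of Rpl7, had 40.6, 53.5 and 63.3 CPM with ITA-LNP, against 46.5, 0.449, 49.8 and 49.5 CPM with control-LNP (1.36 ± 1.24, adjusted p = 0.535). Without control-LNP replicate 2 the log2 fold change was 0.09 (adjusted p = 0.859). Rpl3l, the form of Rpl3 used in heart and skeletal muscle, had no read in the 3 ITA-LNP libraries, and 3 reads, the upper limit at a count of 0, would be 0.412 to 0.471 CPM there. It had 5.91, 0, 8.46 and 13.1 CPM with control-LNP. Rps4l had 4.55, 25.3 and 0 CPM with ITA-LNP, against 0.788, 0, 0.577 and 0 CPM with control-LNP, and the annotation lists it as a transcribed processed pseudogene. For both genes a library of the higher group had no read, so the groups overlapped. Rpl39l and Rpl10l, which are used in testis, were too low to test. Rpl39l had 21.4 CPM in ITA-LNP replicate 3, 1.18 CPM in control-LNP replicate 1 and no read elsewhere, and Rpl10l stayed between 0.299 and 1.10 CPM.

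Ribosomal protein genes have many processed copies in the genome, and the authors' counting could split reads between them. In GENCODE M21, 63 of the 88 genes shared at least one stretch of 50 bases in the last 300 bases of the transcript with another gene, and 45 shared over 50% of such stretches. Of the 25 genes that shared none, 17 of 23 tested ones fell, and all 23 had a log2 fold change below 0 (median -1.40). Among the 23 is Rpl3l, which passed the filter only through the control-LNP libraries. Its sign was therefore set in advance and carries no weight. Of the 45 that shared over 50%, 22 of 41 tested ones fell, and 6 had a log2 fold change above 0 (median -1.18). The difference between these sets was not tested. The name rule leaves out 274 rows named as pseudogenes, 130 of which had no read at all. Rps12 was listed at 0 in every library, while the row Rps12-ps3, which shares 94.4% of the end of Rps12, had 916, 1058 and 739 CPM with ITA-LNP, against 973, 2860, 2709 and 1805 CPM with control-LNP. Despite its name, the annotation lists Rps12-ps3 as protein coding. With the copies added to their parents, Rps12 was at -1.10 ± 0.36 (adjusted p = 0.0682), 52 genes fell as before, and the median was -1.30. Rps27 shares all of its end with Rps27rt, which had 771, 2009 and 1293 CPM with ITA-LNP, against 5002, 1533, 14346 and 11910 CPM with control-LNP. Together the Rps27 rows gave 3288, 3274 and 2644 CPM with ITA-LNP, against 11553, 6235, 33013 and 28424 CPM with control-LNP (-2.40 ± 0.50, adjusted p = 0.00891). The other genes too low to test were Rpl6l, Rps12l1, Rps3a2 and Rps3a3, which the annotation does not list as protein coding, and Rps12l1 and Rps3a2 had no read.

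In the other lists of the translation machinery, the share of genes that fell lay on both sides of the 5.15% of all tested genes. Of 75 tested mitochondrial ribosomal protein genes 1 fell (1.33%) and none rose (median log2 fold change 0.02). The one was Mrpl23, which passed the filter only through the control-LNP libraries, so its call is counted but its p-value is not given. It had 1.41, 0 and 0 CPM with ITA-LNP, against 16, 120, 24.8 and 16.6 CPM with control-LNP. Its call was lost when ITA-LNP replicate 2 or 3 was left out. Of 35 initiation factor genes 3 fell (8.57%) and none rose (median 0.16). Eif1, which guards start codon choice, had 838, 893 and 786 CPM with ITA-LNP, against 1478, 1646, 1396 and 1400 CPM with control-LNP (-0.82 ± 0.18, adjusted p = 0.0111). The other falls were those of Eif3k (-4.49 ± 1.08, adjusted p = 0.0187) and Eif3f (-0.94 ± 0.27, adjusted p = 0.0447), subunits of the largest initiation factor. Eif3k did not pass when any of ITA-LNP replicates 1 and 3 and control-LNP replicates 3 and 4 was left out (up to 0.0781), and Eif3f without any library other than control-LNP replicate 2 (up to 0.161).

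**Figure D5:**
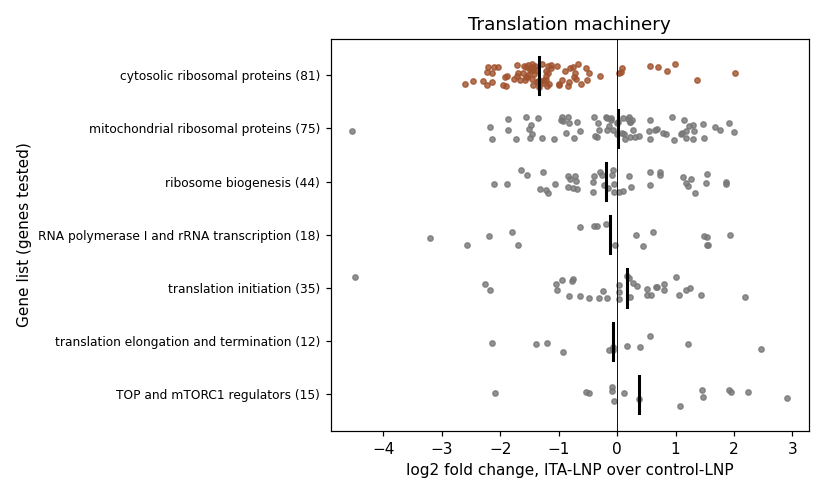
Log2 fold change, ITA-LNP over control-LNP (horizontal axis), of each tested gene in 7 lists of the translation machinery, with the median of a list as a black bar and the number of genes tested in brackets. The median of the cytosolic ribosomal proteins is -1.33 and those of the other 6 lists drawn lie between -0.19 and 0.38; without control-LNP replicate 2 the family is at -1.47 and the 6 lists lie between -0.83 and 0.06. The scaling to the ribosomal protein sum, which moves all genes up together, turns the family median to 0.16.

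Of 12 elongation and termination genes 2 fell (16.7%) and 1 rose (8.33%, against 10.3% of all tested genes; median -0.07). Tpt1, a TOP mRNA that encodes the translationally controlled tumour protein, had 5199, 6217 and 6079 CPM with ITA-LNP, against 9683, 8723, 12534 and 13870 CPM with control-LNP (-0.92 ± 0.16, adjusted p = 0.00419). Eef1b2, an exchange factor of elongation, fell by 1.38 ± 0.28 (adjusted p = 0.00754). Eef2k, the kinase that inhibits elongation factor Eef2, had 77.8, 73.4 and 106 CPM with ITA-LNP, against 21.7, 6.28, 15.0 and 20.8 CPM with control-LNP (2.47 ± 0.66, adjusted p = 0.0325). The groups of these genes did not overlap, and the rise of Eef2k was lost without any single ITA-LNP library or control-LNP replicate 3 or 4 (up to 0.131). Of 19 TOP mRNAs outside the family, some of them counted in the lists above, 4 fell (21.1%). A rise was called for 1 of them (5.26%, against 10.3% of all tested genes), and the median was -0.23. The falls were those of Tpt1, Eef1b2, Eif3f and Fau, and the rise was that of Vim, the intermediate filament of mesenchymal cells (3.85 ± 0.40, adjusted p = 0.000305). Fau, which encodes a small subunit protein under another name, had 97.1, 5.45 and 189 CPM with ITA-LNP, against 541, 1210, 640 and 565 CPM with control-LNP (-3.82 ± 0.98, adjusted p = 0.0258). Its call was lost without control-LNP replicate 1 or 3 (up to 0.0557). The 5 ribosomal proteins that the name rule misses had a median of -1.44, and Fau was the 1 that fell. Of the others, Rps27rt and the scaffold protein Rack1 did not pass (adjusted p = 0.0544 and 0.0854), and both did without control-LNP replicate 2 (adjusted p = 0.00264 and 0.000335).

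Of 15 tested genes of the mTORC1 pathway and TOP regulation, 1 rose (6.67%, against 10.3% of all tested genes) and none fell (median 0.38). It was Rheb, the GTPase that activates mTORC1, with 296, 257 and 293 CPM with ITA-LNP, against 74.3, 90.4, 62.1 and 72.6 CPM with control-LNP (1.91 ± 0.37, adjusted p = 0.00663). Tsc2 and Tsc1, which inhibit Rheb together, did not pass (2.90 ± 1.07, adjusted p = 0.107, and -2.09 ± 0.88, adjusted p = 0.151), and Tsc2 did without control-LNP replicate 2 (1.81, adjusted p = 0.00721). Of 44 ribosome biogenesis genes 2 fell (4.55%) and none rose (median -0.19). Emg1, a methyltransferase of small subunit ribosomal RNA, had 57.3, 62.5 and 64.7 CPM with ITA-LNP, against 174, 179, 184 and 189 CPM with control-LNP (-1.55 ± 0.38, adjusted p = 0.0203, not passing when ITA-LNP replicate 1 or control-LNP replicate 3 or 4 was left out, up to 0.0829). The other was Bysl, a factor of small subunit assembly (-2.11 ± 0.59, adjusted p = 0.0387, not passing when any of ITA-LNP replicates 1 and 2 and control-LNP replicates 1, 3 and 4 was left out, up to 0.146). No gene of 18 for RNA polymerase I and ribosomal RNA transcription passed (median -0.12), and the smallest adjusted p was 0.0586, for Twistnb. At an unadjusted p under 0.05, 3 RNA polymerase I genes were lower and 0 higher. Of the initiation genes 6 were lower and 1 higher, and of the mTORC1 pathway genes 1 was lower and 3 higher. Of the mitochondrial ribosomal protein genes 3 were lower and of the biogenesis genes 4, with 0 higher in both lists. After adjustment, limma-voom called 3 initiation, 1 mitochondrial ribosomal protein and 1 biogenesis gene lower. It called 1 mTORC1 pathway gene higher and 0 RNA polymerase I genes. The share of all tested genes is given for neither limit, so these counts say nothing about the lists against other genes. These lists depended on control-LNP replicate 2 as well. Without it 7 mitochondrial ribosomal protein, 6 initiation, 8 biogenesis and 6 RNA polymerase I genes fell, against 15.7% of all tested genes. In these lists 2, 1, 1 and 0 genes rose, against 1982 of all 12636 tested genes. Of the TOP mRNAs outside the family 8 of 19 then fell, of the ribosomal proteins that the name rule misses 4 of 5, and of the elongation and termination genes 3 of 12. The list medians then were -0.57 for mitochondrial ribosomal proteins, -0.34 for initiation, -0.83 for biogenesis, -0.52 for RNA polymerase I, -0.18 for elongation and termination, 0.06 for the mTORC1 pathway, -0.61 for the other TOP mRNAs and -2.91 for the ribosomal proteins that the name rule misses. The median of all tested genes was -0.31 in that fit.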

How the data were processed

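RNA labelled as whole abdominal aorta was compared between 3 libraries labelled ITA-LNP and 4 labelled control-LNP, whose marker levels leave the tissue of the control-LNP libraries in doubt. Libraries were grouped and numbered from the sample titles, which write NP for LNP. Per the labels' protocols, 500 ng of total RNA went into QuantSeq 3′ libraries. Reads were placed on mm10, as the submitters' processing notes name it. For the aligner, the counter and their use of strand and molecular identifiers, the sources used here give nothing. The authors deposited values on a log10 scale. They were read as log10 of CPM + 1, because the CPM so obtained sum to 1000000 in every column, and 100% of them came out as whole reads within 0.01 of 1 read. Gene matches and shared sequence came from GENCODE M21, in which all 88 names matched, and promoter windows from RefSeq on GRCm38.p6.

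For the tests, log2(CPM + 1) was used, that is a pseudocount of 1 CPM, so fold changes of low genes are understated. Genes with a mean of at least 1 were kept. Limma-trend (limma 3.58.1, R 4.3.3) compared ITA-LNP with control-LNP without covariates, two-sided, with p-values adjusted over all 12636 genes. Fold changes are ITA-LNP over control-LNP, and errors are SE unless SD is written. On simulated counts of 12636 genes at a dispersion of 0.1, this fit found 90.3% of the changes of 4-fold and 100% of those of 16-fold, with 9 calls among unchanged genes. The simulation gave every gene the same dispersion and set no library apart, unlike control-LNP replicate 2 here. Changes under 4-fold were not simulated. The recovery therefore checks the fit and does not tell what share of true changes was found in these libraries. Limits for genes at 0 reads use 3 reads and cover counting error only. Each of the 7 columns was mapped to a sample.

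The members and the gene lists were chosen with earlier results of these data known. Members were named by rule: the 6 largest rises and falls past the threshold, the 8 highest levels, the stalk proteins and Rpsa, the paralogs, 16 members with known roles, and the 3 highest and 3 lowest relative to the family sum. Of the 88 members, 2 are not reported by name or drawn gene by gene here, but stayed in all fits, sums and counts. Of every other list up to 3 genes with the smallest p were named. Python 3.11.15 with pandas 2.3.3, numpy 2.4.6, scipy 1.17.1 and matplotlib 3.10.9 made the tables and plots.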

Additional observations from a re-analysis of the deposited data

Results flagged for a closer look

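Among 38 checks of the control-LNP libraries, 2 had a value far from the others of the group by Dixon's ratio at its usual 95% limit, which chance passes in about 1 group in 20. For Rpl5 the value was that of control-LNP replicate 2, at 564 CPM, the lowest of its group with a ratio of 0.918. For Rpl7l1 it was again control-LNP replicate 2, at 0.449 CPM, the lowest of its group with a ratio of 0.933. The summed ribosomal protein level was not among them. Groups of 3 libraries, as with ITA-LNP, were not checked.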

How the results depend on the processing

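The count of 52 genes that fell was 35 to 64 without a filter on low values, with a mean of at least 2, with pseudocounts of 0.25 or 4 CPM, with quantile normalization, with a robust prior, with sample weights, with limma-voom and with copies added to their parents, and 65 without control-LNP replicate 2 and with centring. The setting with copies and the count over genes with no shared sequence were chosen after seeing the data. It was 7 with median centring, 6 without the intensity trend, 3 with scaling to the ribosomal protein sum and 25 to 63 with a library left out. The count of genes that rose was 8 with scaling to that sum and 0 to 1 with a library left out. The median was -2.46 with median centring and 0.16 with scaling to that sum, which removes the shift of the family by construction. The titles give both groups the numbers 1 to 3, but same-numbered libraries did not deviate together, with correlations of 0.0053, -0.010 and -0.017. With a replicate block 32 members, 1060 genes in all and 3 genes of the other lists passed.

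Over all genes 1957 passed. The count was 3015 with quantile normalization, 3333 with scaling to the ribosomal protein sum, 4343 with sample weights, 4228 without control-LNP replicate 2 and with centring, and 1372 to 3964 with a library left out. Of the genes called, 66.7% were higher with ITA-LNP as deposited, 37.2% with centring, 53.5% with quantile normalization and 92.0% with scaling to the ribosomal protein sum. The other lists held 12 calls, against 23, 37 and 45 with quantile normalization, that scaling and sample weights, 5 without the trend, 47 without control-LNP replicate 2 and with centring, and 6 to 44 with a library left out.

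Of 733 values for 35 single genes under other settings, 584 kept their direction and their side of the threshold, 97 lost it, 30 gained it and 22 changed direction. With scaling to the ribosomal protein sum the log2 fold changes became 1.00 for Rpl10, 0.31 for Rpl11, 0.0309 for Rpl22, 0.77 for Rpl23a, 0.60 for Rpl3, 0.27 for Rpl38, 0.0561 for Rpl39, 0.73 for Rpl4, 0.28 for Rpl5, 0.69 for Rplp0, 0.46 for Rplp1, 0.36 for Rplp2, 0.0063 for Rps16, 0.13 for Rps19, 0.13 for Rps21, 0.0148 for Rps23, 0.67 for Rps4x and 0.55 for Rps6. Median centring gave -0.14 for Rpl22l1 and -0.57 for Rps27l, centring without control-LNP replicate 2 gave -0.14 for Rpl7l1, and copies added gave 0.0091 for Rpl10. Beyond the scaling itself, the cause of these moves was not tested. With 3 and 4 libraries, one of which stands apart, members with a log2 fold change near -1 lie at the edge of what this design calls.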
